A study of Mus musculus with 10 samples.

Results

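Spots with a high summed level of 6 hypoxia-response genes were examined in the tumours NEJ146, NEJ634, NEJ723 and NEJ687. The genes were Vegfa, Adm, Ndrg1, Slc2a1, Egln3 and Bnip3, and the score of a spot was their UMIs (unique molecular identifiers, which count captured RNA molecules) per 10000 UMIs of the spot. In each section the highest 10% of spots by this score, called high-score spots, were set against the lowest 50%, called low-score spots. There were 2605 high-score and 13013 low-score spots among 26022 usable spots of the 4 tumours, and the files of the whole series hold 49916 spots. A usable spot had at least 2000 UMIs and an in-tissue call. NEJ146 had no such call in the sources used here, so at least 8000 UMIs were required there. Because the score itself chose the spots, the levels of these 6 genes are a description, and tests were run on all other genes, and on a score gene only in spots chosen by the other 5. The tumour was the unit (n = 4).

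Cells sense oxygen through prolyl hydroxylases, which mark the alpha subunits of hypoxia-inducible factor (HIF) for destruction through the VHL ubiquitin ligase while oxygen is present. When oxygen falls, HIF pairs with Arnt, binds short DNA motifs and switches on genes for glucose uptake, glycolysis, lactate export, blood vessel growth and removal of mitochondria. Solid tumours that outgrow their vessels are known for zones of this kind, and in the normal liver oxygen falls from the portal to the central side of each lobule.

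Gene expression had been measured with Visium slides, on which a thin frozen tissue section lies on a grid of barcoded capture spots. A spot covers a patch of tissue, often with more than 1 cell in it, and fewer cells of a type and less RNA per cell cannot be told apart in it. The series has 10 sections of 7 mouse tissues, 4 of them sections of NEJ146, whose values were averaged. Section 4 of NEJ146 stood apart from the others: comparing the gene counts of section pairs, the chi-square divided by its degrees of freedom was 67.6 to 91.6 for pairs with section 4 and 14.8 to 20.5 for the rest. All sections are labelled hepatoblastoma and the labels give no genotype, age or treatment. The study describes ABC-Myc mice, in which Cre recombinase driven by the Albumin promoter (Alb-Cre), active in hepatocytes and their fetal precursors, removes a stop cassette and lets the CAG promoter express human MYC (CAG-MYC). Both alleles are thus carried by the ABC-Myc animals, and the transgene was not counted separately here. The study's text names the tissues NEJ146, NEJ634, NEJ723 and NEJ687 as tumours. It also speaks of 3 healthy mouse livers without naming them, whereas the labels call NEJ638, NEJ654 and NEJ677, the other 3 tissues, hepatoblastoma as well. With 4 of 7 tissues named as tumours, the study's count leaves these 3 as its healthy livers. The labels contradict that, and comparisons with these 3 tissues carry the conflict. The fetal marker Afp lay between 1580 and 4248 CPM (UMIs per 1000000) in the tumour sections, while NEJ638, NEJ654 and NEJ677 had 3.79 to 9.64 CPM. Labels give total RNA for NEJ146 and polyA RNA for the rest, so preparation and tumour cannot be told apart for NEJ146. Each tumour section held 61627315 to 117556249 UMIs. P-values measure the spread between 4 tumours, and the sections share the slide's barcode list, with 672 barcodes used in all sections.

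HIF binds a core motif spelled ACGTG or GCGTG. It was searched on both strands in the RefSeq promoter windows (250 bases before to 50 after a start site, GRCm38.p6), and overlapping matches were merged. Promoters of 5 of the 6 score genes were in the table and each of the 5 genes held a match, as did 68.9% of the 7953 promoters of genes tested. A match describes the letters and is not a binding site. Stretches around matches upstream of the start site are shown for 4 score genes, for Ankrd37, a further HIF target, and for the glycolysis genes Pgk1 and Ldha, because their levels are followed through the results. Vegfa is not shown. Of its windows, 1 held no match and the other lies downstream of the first start site, inside the span of that transcript. The Ankrd37 and Ldha windows shown also lie inside the annotated span of their gene, at a start site downstream of the outermost one. Capitals mark the motif on either strand.
Bnip3, chr7:138909579-138909643, minus strand: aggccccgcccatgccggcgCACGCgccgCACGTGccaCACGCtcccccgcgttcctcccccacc
Slc2a1, chr4:119108679-119108743, plus strand: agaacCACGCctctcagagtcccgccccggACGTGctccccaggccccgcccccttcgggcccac
Adm, chr7:110627573-110627637, plus strand: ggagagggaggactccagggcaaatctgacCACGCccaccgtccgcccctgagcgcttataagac
Egln3, chr12:54204060-54204124, minus strand: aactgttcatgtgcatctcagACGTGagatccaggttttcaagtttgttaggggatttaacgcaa
Ankrd37, chr8:45999851-45999886, minus strand: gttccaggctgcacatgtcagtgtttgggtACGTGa
Pgk1, chrX:106186939-106187003, plus strand: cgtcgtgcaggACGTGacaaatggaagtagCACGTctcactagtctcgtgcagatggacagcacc
Ldha, chr7:46845740-46845803, plus strand: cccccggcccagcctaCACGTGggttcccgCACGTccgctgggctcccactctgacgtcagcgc
Among genes tested, a match was present for 29 of 35 HIF targets (82.9%) and 12 of 15 glycolysis genes (80%) with a promoter in the table. It was present for 682 of 949 genes (71.9%) that were higher in high-score spots of all 4 tumours and for 441 of 693 (63.6%) that were lower in all 4.

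The score was mostly a measure of Bnip3 and Ndrg1. Bnip3, a receptor that directs mitochondria to autophagy, gave 41.8 to 55.6% of the score's UMIs in the 7 tumour sections, and Ndrg1, a stress-response protein, gave 20.7 to 35.3%. Over all usable spots Bnip3 lay at 159 to 302 CPM and Ndrg1 at 73.4 to 177 CPM. Vegfa, the main endothelial growth factor, lay at 23.6 to 38.2 CPM, and Slc2a1, the glucose transporter GLUT1, at 22.6 to 59.0 CPM. Egln3, an oxygen-sensing prolyl hydroxylase, lay at 8.68 to 17.5 CPM, and Adm, the vasodilator peptide adrenomedullin, at 2.34 to 5.49 CPM. A high-score spot held a median of 9 to 18 UMIs of the 6 genes and a low-score spot 4 to 8, so counting error was large beside the gap. The lowest high-score spot and the next spot below it differed little, with 7.40 (7.40114) and 7.40 (7.40083) UMIs per 10000 in NEJ687 and 5.69 (5.68969) and 5.69 (5.68828) in NEJ634. Lowest high scores in the other sections lay between 5.47 and 9.07.

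In part of the tumours the score varied little more than counting error would give. The chi-square per degree of freedom of the summed UMIs over spots, which is 1 for counting error alone, was 1.92, 2.21, 2.29 and 2.35 in the NEJ146 sections, where genes of like level had medians of 1.37 to 1.47 and 78.8 to 85.4% of them lay below the score. It was 1.38 in NEJ634, 1.18 in NEJ687 and 1.08 in NEJ723, where genes of like level had medians of 1.27, 1.12 and 1.09. In NEJ723 the score thus varied no more than the median gene of like level. Across spots of 1 section, with shared library and depth, the Spearman correlation of Ndrg1 with the other 5 genes was 0.226 to 0.327 in NEJ146 and 0.0988 in NEJ634, and that of Bnip3 was 0.216 to 0.311 and 0.0682. In NEJ723 and NEJ687 Ndrg1 had 0.0254 and 0.0329 and Bnip3 0.0146 and 0.0536. The 4 other genes stayed between -0.0609 and 0.0647 in every tumour section. The marker check thus held for a pair of genes in NEJ146 and hardly elsewhere, so the spots are named below by their score and not as hypoxic tissue.

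Each score gene was next measured in spots chosen by the other 5, which it did not help to choose. Ndrg1 was higher in such spots in 4 of 4 tumours. Its level was 224 ± 21.5 CPM in high-score and 123 ± 11.9 CPM in low-score spots of NEJ146 (SD, n = 4 sections), 161 and 128 CPM in NEJ634, 84.6 and 73.9 CPM in NEJ723, and 144 and 127 CPM in NEJ687. The levels overlapped between tumours, and each tumour had the higher level in its high-score spots. The fitted log2 difference was 0.41 (SD over tumours 0.32, n = 4, edgeR adjusted p = 0.572). With NEJ146 left out it was 0.22 and passed the test (adjusted p = 0.0188), in a fit that called 5 of 10187 genes higher (0.0491%) and 55 lower.

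Bnip3 was higher in 3 of 4 tumours when chosen by the other 5 genes. It lay at 339 ± 46.0 and 217 ± 24.9 CPM in NEJ146, 176 and 152 CPM in NEJ634, 170 and 174 CPM in NEJ723, and 233 and 206 CPM in NEJ687, a fitted difference of 0.22 (SD 0.29, edgeR adjusted p = 0.510) that was 0.08 without NEJ146. Slc2a1 was higher in 3 of 4 tumours, with 30.3 against 22.1 CPM in NEJ146 and 58.2 against 58.4 CPM in NEJ723, and a fitted difference of 0.18 (SD 0.19, adjusted p = 0.409) that was 0.08 without NEJ146. Egln3 had a difference of 0.11 (SD 0.15, adjusted p = 0.652), or 0.18 without NEJ146. Vegfa and Adm, which encode the secreted vascular signals of the set, had differences of 0.01 (SD 0.05, adjusted p = 0.962) and 0.02 (SD 0.20, adjusted p = 0.984). Vegfa was 26.9 against 26.4 CPM in NEJ146, 40.9 against 39.7 CPM in NEJ634, 23.9 against 25.1 CPM in NEJ723 and 37.9 against 38.1 CPM in NEJ687. Differences of Vegfa by tumour lay between -0.07 and 0.04 (log2 of CPM + 1), so no shift with the rest of the set was detectable. Vegfa had 875 and 5297 UMIs in high-score and low-score spots of NEJ146. Adm had 91 and 548 UMIs there, so a shift of Adm was harder to detect at this depth, and none was seen.

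**Figure D1:**
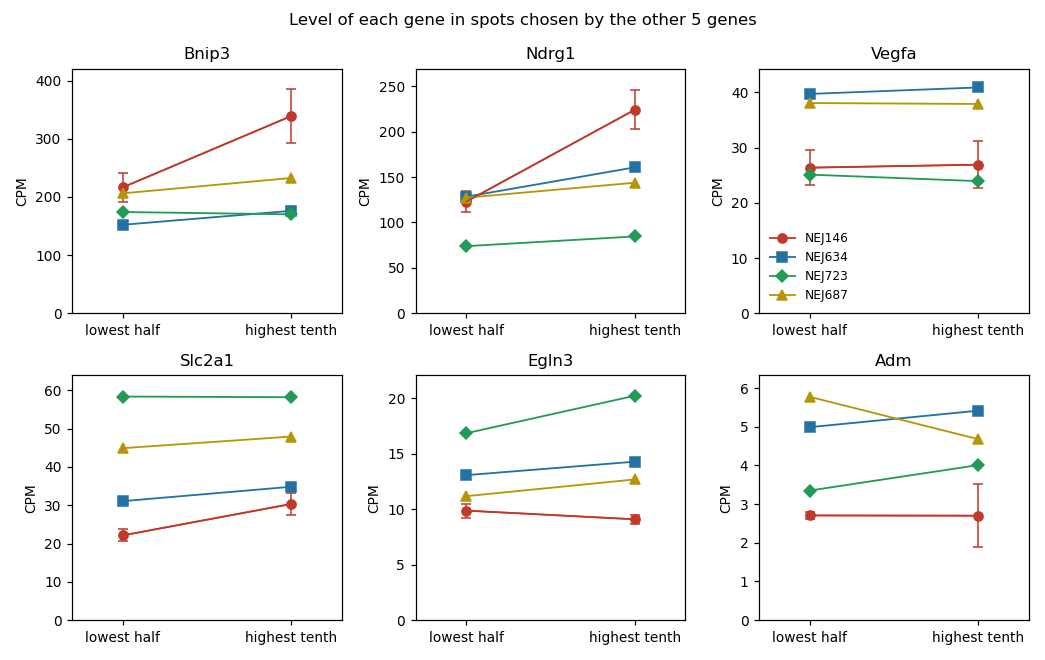
Level (CPM, vertical axis from 0) of each of the 6 genes in the lowest 50% and the highest 10% of spots chosen by the other 5 genes, 1 line per tumour, with NEJ146 as the mean ± SD of its 4 sections. Ndrg1 lines rise in all 4 tumours and the Bnip3 line rises most in NEJ146 (217 to 339 CPM), while the NEJ146 Vegfa line runs from 26.4 to 26.9 CPM.

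High-score spots lay next to each other more often than their share of spots gives in 3 of 4 tumours. A neighbour of a high-score spot was itself high-score in 23.5% of cases in NEJ146, 15.7% in NEJ634, 14.1% in NEJ687 and 9.28% in NEJ723, against about 10% of all spots. The ratio averaged 1.48 on the log scale over tumours (2.35 in NEJ146, 1.56 in NEJ634, 1.41 in NEJ687 and 0.925 in NEJ723, exact two-sided sign-flip permutation p = 0.25, where 4 tumours allow no p below 0.125). NEJ723 alone had a ratio under 1, and with the highest 20% of spots it had 1.01, which put 4 of 4 tumours above 1 (mean ratio 1.34, exact p = 0.125). The largest patches of adjoining high-score spots held 12 to 27 spots in the NEJ146 sections, 17 in NEJ634 and 8 in both NEJ723 and NEJ687, and 87 to 176 high-score spots per section stood alone. The share of spots at a margin, meaning spots without all 6 neighbours among the usable spots, was also compared. Gaps left by the UMI minimum and the edge of the capture grid count as margin too. NEJ146, without a tissue call, used 4171 to 4878 of 4992 spots per section, so the tissue edge cannot be told apart there. The share differed between high-score and low-score spots by 4.19 percentage points in NEJ146, 0.45 in NEJ687, -1.50 in NEJ723 and -3.28 in NEJ634 (exact p = 1), so the tumours went both ways. With spots chosen within 5 bins of UMI count all 4 differences were below 0, at -1.47 in NEJ146, -1.41 in NEJ687, -3.70 in NEJ723 and -2.92 in NEJ634 (mean -2.38, exact p = 0.125, the smallest that 4 tumours allow).

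**Figure D2:**
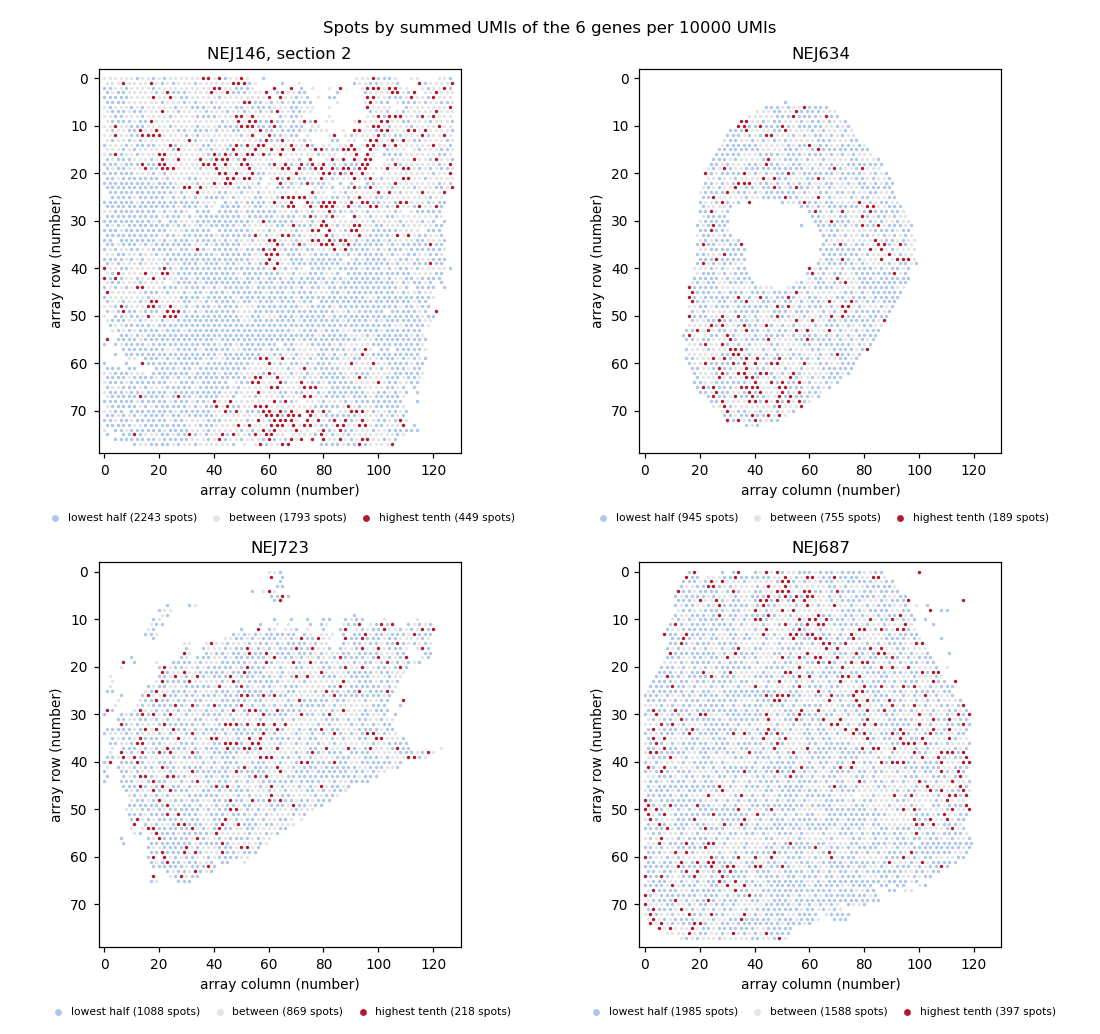
Usable spots of 1 section per tumour at their array row and column, with high-score spots (highest 10%) in dark red, low-score spots in light blue and spots between them in grey. The largest patch of red spots holds 27 spots in the NEJ146 section and 8 in NEJ723.

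Glycolysis genes had lower levels with distance from high-score spots in the section of NEJ146 with the largest patch. The summed level of the list was 9613 CPM in high-score spots, then 8627, 8154, 7817 and 7667 CPM in spots at 1, 2, 3 and 4 or more steps. In NEJ687 it was 7935, 7776, 7586, 7519 and 7475 CPM over the same steps, a narrower range. NEJ634 had 8421 CPM in high-score spots and 8015 to 8087 CPM at the steps, and NEJ723 had 7794 CPM and then 7532 to 7745 CPM. Erythroid genes had no common course. They went from 525 CPM in high-score spots over 613, 675 and 1077 to 2832 CPM in NEJ634, and from 2246 to 3725 CPM in NEJ723. In NEJ687 they were highest at 3 steps (5590, 6418, 9926, 13258 and 9276 CPM), and in the same NEJ146 section at 2 steps (7183, 12493, 14217, 11533 and 5625 CPM), where the farthest spots lay below the high-score spots. These sums are descriptions. The steps are counted from spots that the score chose and hold only spots below its threshold, and median UMIs also differed by step, from 14225 in high-score spots to 25408 at 4 or more steps in that NEJ146 section.

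High-score spots were shallower than low-score spots in every tumour section. Their median UMI count was 14225 to 19693 against 18905 to 23765 in NEJ146, 24478 against 29131 in NEJ634, 17272 (17271.5) against 19116 in NEJ723 and 10288 against 13961 in NEJ687. With spots in 5 equal bins of UMI count, 12.9 to 18.8% were high-score in the shallowest bin and 2.64 to 8.38% in the deepest. The share of mitochondrial UMIs was lower in high-score spots, with 3.25 against 4.15% in NEJ634, 2.62 against 2.86% in NEJ723, 3.22 against 3.49% in NEJ687 and 6.05 to 6.66% against 6.85 to 7.54% in NEJ146. Spots were also chosen within these 5 bins, which brought the medians to 13245 and 13088 in NEJ687.

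**Figure D3:**
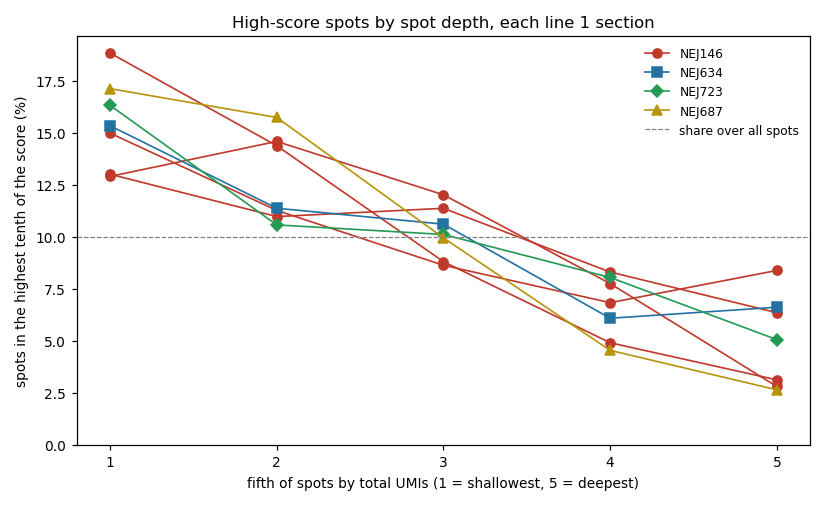
Share of spots (%) that were high-score in each of 5 bins of spots by total UMIs, from shallowest (1) to deepest (5), 1 line per section. Every line ends below its start, from 12.9 to 18.8% down to 2.64 to 8.38%, and the dashed line marks 10%.

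Across the transcriptome no gene passed the test between high-score and low-score spots. Of 10050 genes whose level averaged 5 CPM or more, edgeR called 0 higher (0%) and 0 lower (0%) at an adjusted p under 0.05, and the smallest adjusted p was 0.435. At an unadjusted p under 0.05 there were 475 higher and 678 lower genes. DESeq2 called 0 higher and 9 lower (0.0896%), limma called 0, and with NEJ146 left out edgeR called 1 higher (0.00982%) and 49 lower (0.481%). By sign alone, 1195 genes (11.9%) were higher and 931 (9.26%) lower in 4 of 4 tumours, and the median log2 difference of all genes was 0.01. Counts of list members below are read beside those shares.

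Among the genes of the HIF pathway, 3 of 13 tested were higher in 4 of 4 tumours and 1 was lower, with a list median of 0.04 (0.02 within 5 bins of UMI count) and no member passing the test. Hif1a, the oxygen-regulated subunit itself, was at 37.5 ± 3.10 and 29.0 ± 2.41 CPM in high-score and low-score spots of NEJ146, 43.4 and 41.2 CPM in NEJ634, 40.1 and 35.1 CPM in NEJ723, and 42.9 and 34.9 CPM in NEJ687. It was higher in every tumour by a fitted log2 difference of 0.24 (SD 0.13, n = 4, edgeR adjusted p = 0.435). Hif3a, whose protein can act as a brake on HIF and is itself a HIF target, was at 18.8 against 9.55 CPM in NEJ146, 29.9 against 25.9 CPM in NEJ634, 62.5 against 57.6 CPM in NEJ723 and 47.3 against 40.1 CPM in NEJ687 (difference 0.37, SD 0.37, adjusted p = 0.435). Egln1, the main prolyl hydroxylase, was higher in all 4 tumours, by 0.38 in NEJ146 and 0.12 to 0.14 in the others (log2 of CPM + 1). Epas1, the HIF-2 alpha subunit and a gene rich in endothelium, was at 19.8 and 43.2 CPM in NEJ146, 20.9 and 29.4 CPM in NEJ634, 20.5 and 20.5 CPM in NEJ723, and 20.2 and 25.9 CPM in NEJ687 (fitted difference -0.55, adjusted p = 0.435). Egln2, Hif1an and Vhl, the other hydroxylases and the ligase, had differences of 0.04, 0.04 and -0.07.

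Of 62 listed HIF targets, 47 were tested, 8 were higher in 4 of 4 tumours and 4 were lower, with a median of 0.06 (0.02 without NEJ146) and no member past the test. Of all genes 11.9% were higher in 4 of 4 tumours. Ankrd37, an ankyrin-repeat protein, was at 13.8 ± 2.85 and 7.81 ± 0.94 CPM in NEJ146, 10.2 and 7.46 CPM in NEJ634, 9.16 and 7.59 CPM in NEJ723, and 8.12 and 7.05 CPM in NEJ687. Its lowest high-score level lay above its highest low-score level. The fitted difference was 0.50 (SD 0.26, adjusted p = 0.435).

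Ppp1r3c, a phosphatase subunit that promotes glycogen storage, was at 30.1 ± 3.63 and 17.5 ± 1.65 CPM in NEJ146, 16.3 and 12.3 CPM in NEJ634, 11.3 and 7.59 CPM in NEJ723, and 19.02 and 15.4 CPM in NEJ687 (difference 0.54, SD 0.20, adjusted p = 0.435). Levels overlapped between tumours and were higher in the high-score spots of each. Ndufa4l2, which lowers mitochondrial respiration, was at 14.9 against 6.73 CPM in NEJ146 and 10.4 against 6.09 CPM in NEJ687, with smaller gaps of 7.03 against 5.84 CPM in NEJ634 and 11.04 against 9.55 CPM in NEJ723 (difference 0.66, SD 0.41). Slc16a3, the lactate exporter MCT4, had a difference of 0.59 (SD 0.31), from 0.94 in NEJ146 to 0.28 in both NEJ634 and NEJ723. Igfbp1, a liver-made binding protein of insulin-like growth factors, was the most abundant of them at 1001 against 535 CPM in NEJ146, 452 against 434 CPM in NEJ634, 557 against 495 CPM in NEJ723 and 1401 against 1010 CPM in NEJ687. Tfrc (transferrin receptor), Ankzf1 and Higd1a (a mitochondrial survival factor) were higher in 4 of 4 tumours by fitted differences of 0.14, 0.13 and 0.11. All of these had an adjusted p between 0.435 and 0.537.

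The other HIF targets described here did not share 1 direction in 4 of 4 tumours, or were lower in all 4. Bnip3l, the close relative of Bnip3, was at 58.2 and 58.0 CPM in NEJ146 and had a fitted difference of -0.03, and Ddit4, an mTOR inhibitor, had -0.09. Kdm3a, a histone demethylase, Angptl4, a lipase inhibitor, and Hilpda, a lipid droplet protein, had -0.09, -0.12 and -0.01. P4ha1, a collagen prolyl hydroxylase, had 0.10, and Pdk1, an inhibitor of pyruvate dehydrogenase, had 0.18. Ak4, a mitochondrial adenylate kinase, had 0.25, with 0.88 in NEJ146 and -0.16 to 0.15 elsewhere. Cp (ceruloplasmin), Rragd, Ccng2 (cyclin G2) and Car12 (a carbonic anhydrase) were lower in 4 of 4 tumours by -0.42, -0.41, -0.32 and -0.31. Insig2, a regulator of sterol synthesis, had the lowest value of the list at -0.61, from -1.45 in NEJ146 to 0.15 in NEJ723.

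**Figure D4:**
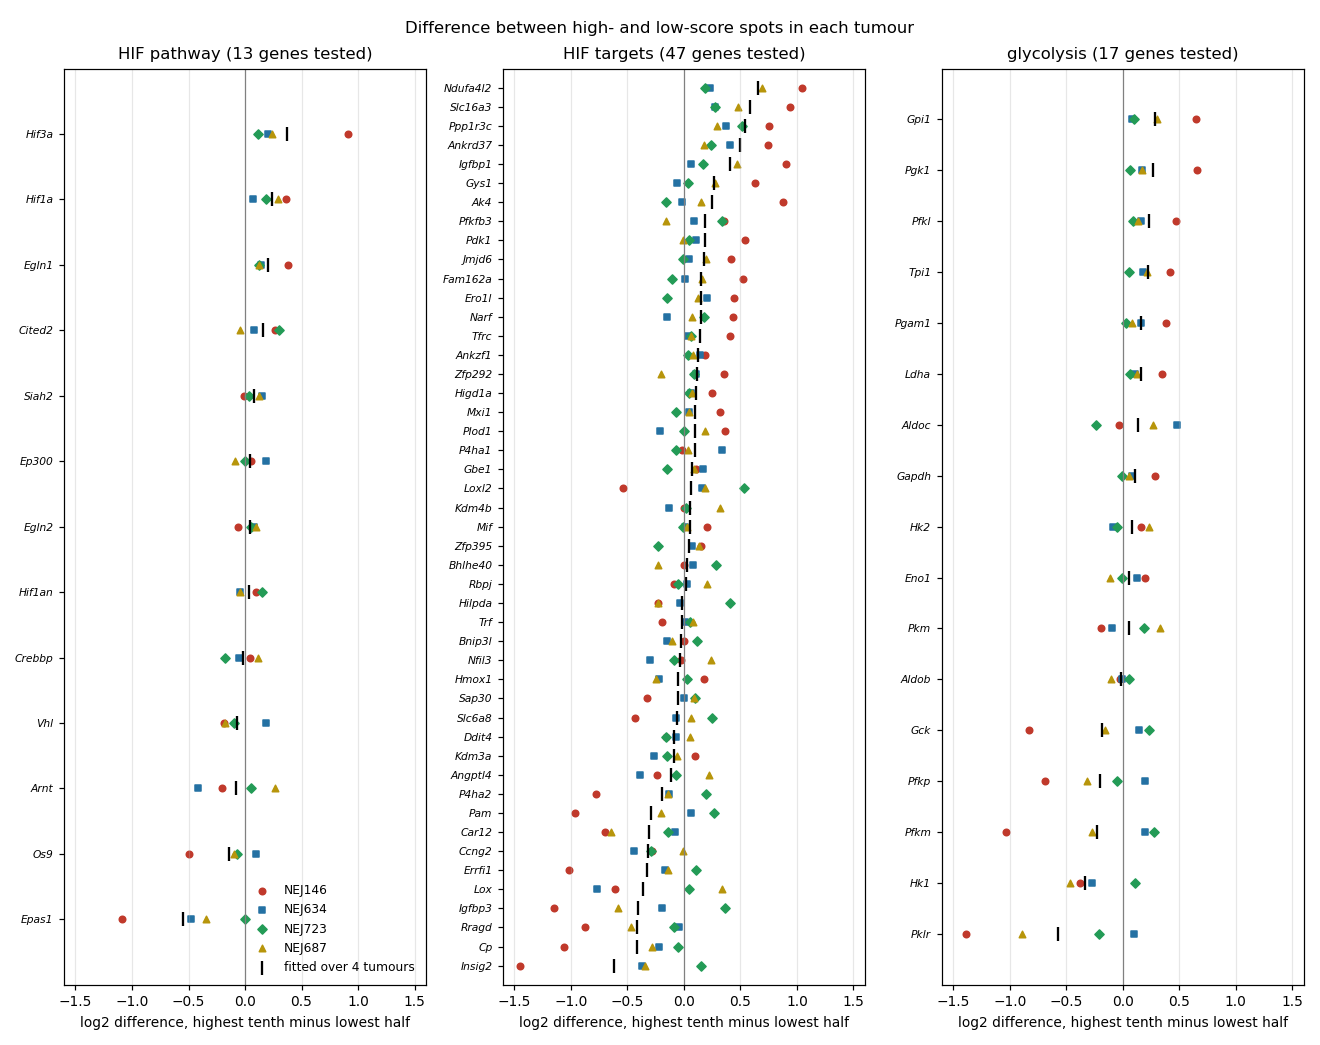
Log2 difference (high-score minus low-score spots, CPM + 1) of every tested member of the HIF pathway, HIF target and glycolysis lists, with 1 marker per tumour and a bar for the value fitted over 4 tumours. NEJ146 markers reach 1.04 for Ndufa4l2 and -1.45 for Insig2.

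Of 20 listed glycolysis genes, 17 were tested, 6 were higher in 4 of 4 tumours and 0 were lower, with a median of 0.08 (0.14 within 5 bins of UMI count) and no member past the test. By the fitted value 11 were above 0 and 6 below. Pgk1, phosphoglycerate kinase, was at 931 ± 66.8 and 590 ± 15.8 CPM in NEJ146, 584 and 518 CPM in NEJ634, 538 and 515 CPM in NEJ723, and 687 and 611 CPM in NEJ687. It was higher in each tumour, most in NEJ146 (fitted difference 0.27, SD 0.27, adjusted p = 0.435). Ldha, which turns pyruvate to lactate, was at 1652 against 1297 CPM in NEJ146, 1689 against 1570 CPM in NEJ634, 1899 against 1818 CPM in NEJ723 and 1646 against 1506 CPM in NEJ687 (difference 0.16, SD 0.13). Gpi1, Pfkl, Tpi1 and Pgam1, which act between glucose uptake and pyruvate, had differences of 0.29, 0.23, 0.22 and 0.17. Gapdh was higher in 3 of 4 tumours by 0.11. Pkm and Hk2, the pyruvate kinase and hexokinase forms typical of tumours, had 0.05 and 0.08, and Hk1 and Pklr, the liver pyruvate kinase, had -0.33 and -0.57, each with 1 tumour going the other way. Without NEJ146 the fitted differences of Pgk1 and Ldha were 0.12 and 0.09.

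No gene of oxidative phosphorylation passed the test over 4 tumours, and counts are given by the genome that encodes them. Subunits encoded in the nucleus were higher in 4 of 4 tumours for 9 of 25 genes and lower for 0, with a median of 0.11. That median was 0.03 without NEJ146, and the tumours' own medians were 0.33 in NEJ146, 0.06 in NEJ634, 0.06 in NEJ687 and -0.01 in NEJ723. The 12 tested genes of the mitochondrial genome were higher for 0 and lower for 9, with a median of -0.21, which was -0.21 without NEJ146 and -0.13 when the score was taken per UMIs other than mitochondrial and globin. Cox4i1 and Atp5b, nuclear subunits of complex IV and of ATP synthase, had differences of 0.15 and 0.14. The complex IV subunit mt-Co1 was at 16113 and 16406 CPM in NEJ146, 8187 and 10192 CPM in NEJ634, 6646 and 7182 CPM in NEJ723, and 7349 and 8176 CPM in NEJ687 (difference -0.15, SD 0.12, adjusted p = 0.442). Within 5 bins of UMI count the difference of mt-Co1 was -0.05. Without NEJ146 5 of the mitochondrial genes passed the test as lower, in a fit that called 49 of 10179 genes lower (0.481%). Mitochondrial UMIs are part of the spot total that the score is divided by. That fit was not repeated with a total that leaves them out. Enzymes of the citric acid cycle were higher in 4 of 4 tumours for 7 of 18 genes and lower for 1, with a median of 0.11, and Idh2 had a difference of 0.14. The median was 0.03 without NEJ146, whose own median was 0.30 against 0.00 to 0.06 in the other tumours.

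No erythroid, neutrophil or lymphocyte gene passed the edgeR test over 4 tumours. The median of the 3 lymphocyte genes tested was 0.23, with 1.59 in NEJ723 and values below 0 in the other tumours. Of 12 erythroid genes tested 0 were higher and 6 lower in 4 of 4 tumours, with a median of -0.42, and of 11 neutrophil genes 0 were higher and 7 lower, with a median of -0.50. The neutrophil median was -0.28 without NEJ634. Hba-a1, an alpha globin, was at 1030 ± 194 and 1821 ± 419 CPM in NEJ146, 103 and 204 CPM in NEJ634, 470 and 580 CPM in NEJ723, and 942 and 1857 CPM in NEJ687. It was lower in each tumour by a fitted difference of -0.77 (SD 0.32, n = 4, edgeR adjusted p = 0.435), and without NEJ146 by -0.76 (adjusted p = 0.00276). Hbb-bs, a beta globin, had -0.70, and Alas2, the first enzyme of haem synthesis in red cells, had -0.64 with -0.79, -0.70, -0.52 and -0.48 in NEJ146, NEJ634, NEJ723 and NEJ687. DESeq2 called Alas2 and 4 globin genes lower, with 9 lower calls in all. S100a9 and S100a8, alarmins of neutrophils, had differences of -0.52 and -0.50, and Camp, an antimicrobial peptide, -0.72 from -1.48 in NEJ634 to -0.41 in NEJ146. Without NEJ146, 7 erythroid and 5 neutrophil genes passed the test as lower, in a fit that called 49 of 10179 genes lower (0.481%). Globin UMIs are part of the spot total that the score is divided by. That fit was not repeated with a total that leaves them out.

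Those differences were smaller, or had the other sign, under some other ways of scoring. With spots chosen within 5 bins of UMI count most of each was left. Hba-a1 then had -0.56 and Alas2 -0.58, and the erythroid and neutrophil medians were -0.37 and -0.40. When the score was taken per UMIs other than mitochondrial and globin UMIs, Hba-a1 had -0.37 and Alas2 -0.18. With every spot thinned to 2000 UMIs before scoring, Hba-a1 had 0.10 and Camp 0.23. The neutrophil median was 0.10 with thinned spots, -0.02 when Bnip3 and Ndrg1 were left out of the score, and 0.13 with equal weight of the 6 genes. The erythroid median was 0.02, -0.17 and -0.17 under the same 3 settings. The summed erythroid level was 525 against 1035 CPM in NEJ634, 2246 against 2716 CPM in NEJ723, 5590 against 10037 CPM in NEJ687 and 4621 to 7183 against 7167 to 13076 CPM in the NEJ146 sections, 1 of which had 7183 against 7167 CPM. Every defining erythroid marker in the files was present in all tumour sections, with 0 at 0.

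No gene of stroma, bile duct, central-vein hepatocytes or the acute phase passed the edgeR test over 4 tumours, and the list medians were lowest in NEJ146. Mural and stromal genes were lower in 4 of 4 tumours for 4 of 17 and higher for 0 (median -0.39), and the tumours' own medians were -1.09 in NEJ146, -0.48 in NEJ634, -0.10 in NEJ687 and 0.11 in NEJ723. Biliary and progenitor genes were lower for 3 of 11 and higher for 0 (median -0.51), with -2.27 in NEJ146 and 0.05 in NEJ723. Without NEJ146 the stromal and biliary medians were -0.20 and -0.16. Col3a1, a fibrillar collagen, was at 94.2 ± 9.71 and 206 ± 18.3 CPM in NEJ146, 469 and 647 CPM in NEJ634, 134 and 125 CPM in NEJ723, and 135 and 145 CPM in NEJ687. Spp1 (osteopontin) was at 22.2 against 165 CPM in NEJ146, 219 against 418 CPM in NEJ634, 47.1 against 27.2 CPM in NEJ723 and 40.8 against 83.3 CPM in NEJ687, so NEJ723 was opposite to the rest.

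Pericentral enzymes were lower in 4 of 4 tumours for 5 of 10 genes and higher for 0, with a median of -0.63. It was -0.17 without NEJ146 and, within 5 bins of UMI count without NEJ146, -0.02 with 5 genes above 0 and 5 below. Cyp3a11, a drug-metabolising cytochrome P450, had -0.97, from -2.52 in NEJ146 to -0.01 in NEJ723, whereas Glul (glutamine synthetase) and Rgn had -0.04 and 0.03. Cyp2c29, counted as lower in all 4 tumours, was near the floor in NEJ723 (0 and 0.09 CPM). Periportal enzymes were higher for 3 of 14 and lower for 3 (median -0.03), with Cyp2f2 lowest at -1.90. Cyp2c29 and Cyp2f2 were chosen after their values were seen. Acute phase genes were lower for 4 of 14 and higher for 2 (median -0.38, or -0.18 without NEJ146). Hp (haptoglobin) had -0.59 and Itih3 0.23. Endothelial genes were lower for 6 of 21 and higher for 0 (median -0.10), with Plvap at -0.38, Eng at -0.29 and Egfl7 at 0.01. Macrophage genes were lower for 4 of 17 and higher for 0 (median -0.14, or -0.01 without NEJ146), with Lyz2 at -0.05 and Cd5l at 0.10. Arg1, at -0.28, was on this list and on that of periportal enzymes, and Spp1 was also on the biliary list. Neither is specific to macrophages, and the study uses ARG1 staining to mark primary hepatocellular tumours. The summed endothelial level was 458 against 498 CPM in NEJ634, 365 against 386 CPM in NEJ723, 607 against 591 CPM in NEJ687 and 363 to 437 against 467 to 559 CPM in NEJ146.

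**Figure D5:**
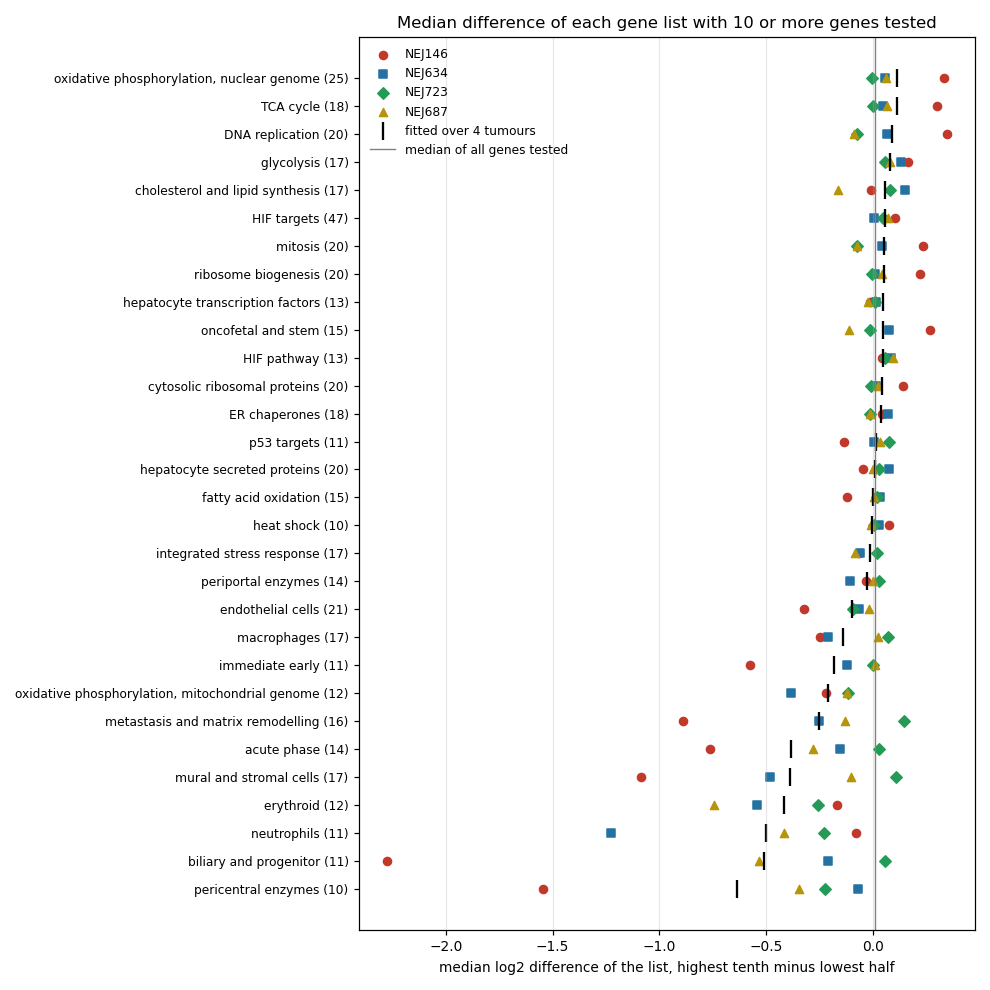
Median log2 difference (high-score minus low-score spots) of each gene list with at least 10 tested genes, with 1 marker per tumour and a bar for the fitted values, and the number of genes in parentheses. The lists span -0.63 (pericentral enzymes) to 0.11 (nuclear genes of oxidative phosphorylation), and NEJ146 reaches -2.27 for biliary and progenitor genes.

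The gene differences changed when Bnip3 and Ndrg1 were taken out of the score. The other 4 genes gave the smaller part of the score's UMIs, so few UMIs per spot were left to rank spots by. Whether this or the choice of genes made the change was not tested. When spots were chosen by the other 4 genes, Hif1a had a difference of -0.02, Pgk1 -0.02, Ldha -0.04, Ppp1r3c 0.03 and Igfbp1 -0.05. Ankrd37 had 0.23, Ndufa4l2 0.32 and Slc16a3 0.71. Spp1 turned to 0.69, Col3a1 to 0.29 the biliary median to 0.46 and the stromal median to 0.21, with 14 of 17 genes above 0. Equal weight was given by dividing each gene by its own mean, so a UMI of Adm, the rarest gene, weighed more than a UMI of Bnip3. That ranking thus leaned on genes with few UMIs. With the 6 genes given equal weight the HIF target median was 0.02 and the glycolysis median 0.01, with 9 genes above 0 and 8 below. The stromal median was 0.11, with 15 of 17 genes above 0, and the endothelial median 0.07, with 17 of 21 above 0. In this setting edgeR called 13 genes higher (0.129%) and 20 lower (0.198%). Spp1, Sparc, Pkm and Igfbp1 were among the higher and Hba-a1, Hbb-bs, Alas2 and mt-Co1 among the lower. In the 37 settings that tested it, all but the filter at 20 CPM, Ankrd37 kept a positive sign, with values from 0.12 to 0.63. Ndufa4l2, Slc16a3, Ppp1r3c and Tfrc also kept a positive sign in all settings that tested them. Other HIF targets kept a negative sign just as steadily, namely Cp (-0.53 to -0.04), Rragd (-0.57 to -0.13) and Insig2 (-0.80 to -0.05).

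The same rule applied to NEJ638, NEJ654 and NEJ677 gave 812 high-score spots. There Vegfa carried more of the score, 23.0 to 37.7% of its UMIs. There Hba-a1 had differences of -0.72, -0.76 and -0.77, while Alas2 had 0.09, 0.32 and 0.14 and the erythroid median was -0.04, -0.03 and -0.10. The difference between high-score and low-score spots itself differed between the 4 tumours and the 3 other tissues for 5 of 9910 genes by the edgeR interaction test (0.0505%). All 5 were under the mean of 5 CPM in the tumours, were not among the 10050 genes above, and passed the filter only through the other tissues, where they lay at 18.9 to 460 CPM. Their values are therefore a description and support no difference between tumours and other tissues. Rdh16, a retinol dehydrogenase, was at 1.69 and 14.04 CPM in high-score and low-score spots of NEJ146 and at most 2.82 CPM in the other tumours, and at 35.2 to 79.5 CPM on both sides in the other tissues. The interaction of Rdh16 was -2.63 (adjusted p = 0.0393), and that of Cyp2c54, Ido2, Cyp2d40 and Slc22a30 was -2.57, -2.67, -2.79 and -2.84. Without NEJ146 a different set of 39 genes was called, sharing 0 with these 5, and with spots chosen within 5 bins of UMI count 0 genes were called.

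Growth and tumour identity genes showed no common shift. Of 20 mitosis genes 0 were higher and 0 lower in 4 of 4 tumours (median 0.05), with Mki67, Birc5 and Ube2c at 0.12, 0.16 and -0.06. DNA replication genes were higher for 2 of 20 (median 0.09), Mcm6 by 0.20. Oncofetal and stem genes were higher for 3 of 15 and lower for 2 (median 0.05), with H19 at 0.18, Afp at 0.18 and Igf2 at 0.07. Hepatocyte secreted proteins had a median of 0.01, with Apoa2 at 0.04 and Alb at -0.38, where NEJ146 had -1.17 and NEJ634 0.04. Genes of the integrated stress response had a median of -0.02, and ER chaperones had 3 of 18 higher and 3 lower, with Hspa5 at 0.06.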

How the data were processed

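Visium count tables of 10 frozen mouse liver sections were analysed. The deposited values are UMI counts per gene and spot, made by the authors. The study's methods name Space Ranger for the Visium data. The submitters' processing notes name Cell Ranger 6.0 for NEJ146 and Space Ranger 1.3 with mm10 for the others. The build for NEJ146 is not given in the sources used here. NEJ146 had no tissue call, so spots there were taken by UMI count and placed by the barcode positions of the other slides. Members and gene lists were chosen with earlier results of these data known. Counts were summed over the high-score and the low-score spots of each section, NEJ146 sections were averaged, and both sides were compared with edgeR 4.0.16 (R 4.3.3, quasi-likelihood test, TMM, Benjamini-Hochberg) with the tumour as a block, since both sides come from the same sections. Genes averaging 5 CPM or more were kept, and the score genes were left out. Differences by tumour are log2(CPM + 1). Alternatives were DESeq2 1.42.0, limma 3.58.1, other filters, scores and spot sets, and leaving out each tumour or section. Named genes were the score genes, members of the HIF pathway, HIF target and glycolysis lists, and the most abundant members of the other lists. Alas2 was chosen after its values were seen. Scripts were tested on simulated data.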

Additional observations from a re-analysis of the deposited data

Results flagged for a closer look

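Among 130 sets of 4 tumour values examined, 10 held a tumour that stood far from the other 3, and chance flags about 1 set in 20. NEJ146 stood above the rest for Hif3a (0.91), Egln1 (0.38), Tfrc (0.41) and Higd1a (0.25), as log2 differences between high-score and low-score spots. NEJ634 stood below the rest for Camp (-1.48), mt-Co3 (-0.37) and mt-Atp6 (-0.34). NEJ723 stood apart for Fam98c (0.28), for Igkc, an immunoglobulin light chain (3.65), and for the median of 3 lymphocyte genes (1.59).

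The edgeR interaction test between tumours and other tissues called Rdh16 (-2.63), Cyp2c54 (-2.57), Ido2 (-2.67), Cyp2d40 (-2.79) and Slc22a30 (-2.84). These genes were under a mean of 5 CPM in the tumours and passed the filter only through the other tissues, so the calls support no difference. With spots chosen within 5 bins of UMI count 0 genes were called, and the 39 called without NEJ146 shared 0 with these 5. Fam98c was chosen after its values were seen.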

How the results depend on the processing

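Of 38 alternatives to the test between high-score and low-score spots, 31 called 0 genes. Leaving out 1 tumour at a time gave 0 to 1 genes higher and 0 to 49 lower, with the 1 and the 49 without NEJ146, and within 5 bins of UMI count 0 to 1 higher and 0 to 44 lower. DESeq2 called 9 lower, thinning to 2000 UMIs 2 lower and the highest 5% of spots 1 higher and 4 lower. Equal weight of the 6 genes gave 13 higher and 20 lower. A spread shared with the other 3 tissues, chosen after seeing the data, gave 5 higher and 77 lower. The 77 include genes, such as Rdh16 and Cyp2c54, that passed the filter only through the other tissues, so they are not a count of tumour genes alone. Without the replicate block, which treats the paired sides of a tumour as separate, 0 were called and 44 had an unadjusted p under 0.05. The 5 genes called between tumours and other tissues became 12 at a mean of at least 1 CPM, 39 without NEJ146 and 0 within 5 bins of UMI count. Score genes called with spots chosen by the other 5 ranged from 0 to 1, the 1 being Ndrg1 without NEJ146. The margin difference of -0.0349 percentage points turned to 1.05 without NEJ634 and 0.454 without NEJ723, ranged from -1.44 to 1.05 with 1 tumour left out, and was -2.38 within 5 bins of UMI count. Of 89 named genes 31 kept their sign in all alternatives and 58 did not. The causes were not tested. Score UMIs per spot (medians of 4 to 18) limit how well spots can be told apart.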

Other observations

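Genes with the smallest p-values in the edgeR fit, chosen after their values were seen, had small spreads over tumours but an adjusted p of 0.435. Tnnc1, a troponin subunit, was at 26.4 and 13.7 CPM in high-score and low-score spots of NEJ146, 8.23 and 5.07 CPM in NEJ634, 12.4 and 9.18 CPM in NEJ723, and 29.2 and 19.8 CPM in NEJ687 (difference 0.69, SD 0.21, n = 4). Nfe2l2, the oxidative stress factor NRF2, was lower in each tumour, with 43.6 and 57.2 CPM in NEJ146, 46.6 and 54.5 CPM in NEJ634, 34.2 and 42.9 CPM in NEJ723, and 40.1 and 49.7 CPM in NEJ687 (-0.31, SD 0.07). Akip1 was lower in each by a similar amount between tumours (-0.45, SD 0.05). Sfmbt2 had the highest fitted difference of these (1.16), at 33.3 and 12.3 CPM in NEJ146 and 0.269 and 0.0466 CPM in NEJ723.

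Without NEJ146, 1 gene passed the edgeR test as higher and 49 as lower. The higher gene was Slc36a2, an amino acid transporter, at 22.3 and 13.9 CPM in NEJ634, 33.1 and 27.1 CPM in NEJ723, and 60.3 and 43.2 CPM in NEJ687 (0.46, adjusted p = 0.0322). Hepatocyte genes were among the lower ones, such as Serpina3k (-1.06), Tdo2, which breaks down tryptophan (-1.08), Mug1 (-1.17) and Hsd17b6 (-1.22). In NEJ723 these 4 genes were at 0 to 1.304 CPM on both sides. The genes were named after their values were seen.

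The abundant keratins Krt8 and Krt18 had differences of -1.29 and -1.12 in NEJ146 and between -0.23 and 0.08 in the other tumours, and the matrix gene Fn1 had -0.04 in the fit.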
